A study of Homo sapiens with 6 samples.

Results

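The 10 genes described here encode subunits of the replicative DNA polymerases and of primase: POLA1, POLA2, PRIM1 and PRIM2 of the polymerase alpha-primase complex, POLD1, POLD2 and POLD3 of polymerase delta, and POLE, POLE2 and POLE3 of polymerase epsilon. They were chosen by gene symbol, but with earlier results of these data known. All 10 were found among the 23228 gene names of the deposited table. RNA sequencing data were available for SaOS-2 cells carrying a Tet-inducible p21 vector, with 3 libraries of untreated cells (p21 OFF) and 3 libraries of cells given 1 µg/ml doxycycline for 24 h (p21 ON). SaOS-2 is a human osteosarcoma line that the study describes as null for RB and p53, so both groups share the vector and the loss of these proteins. Neither the clonal origin of the line nor a doxycycline-treated culture without the vector was given, so what doxycycline does and what p21 does cannot be told apart. The study's methods speak of biological replicates, without saying how the cultures were kept apart, and p-values measure the spread between these libraries. The comparison asks whether genes of DNA synthesis change in level when p21 is induced in cells without RB.

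Polymerase alpha-primase starts every new DNA strand, with primase laying down a short RNA primer and polymerase alpha extending it with DNA. Polymerase epsilon then copies the leading strand and polymerase delta the lagging strand, where a new primer is needed for every Okazaki fragment. p21 inhibits cyclin-dependent kinases and also binds the PCNA clamp that holds polymerase delta on DNA, and many genes of DNA synthesis are transcribed through E2F sites, which RB family proteins repress in G1.

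The libraries held 12795490 to 21975045 reads on genes, recovered from the normalized counts (reads divided by a size factor for each library), and every member had at least 66 reads in every library. One library stood apart from its group: p21 OFF replicate 1 differed from p21 OFF replicates 2 and 3 with a chi-square per gene of 8.50 and 9.26, against 2.71 to 3.98 for the other pairs. Without it 1 member was called higher and 4 lower by limma, as with all libraries. CDKN1A, the gene of p21, had 1257, 1187 and 1355 normalized counts with p21 OFF and 40470, 43863 and 46739 with p21 ON, a log2 fold change of 5.11 and the largest of the genes tested. Reads of the vector and of the cell's own gene are counted together in this value. RB1 RNA was present in all libraries at 396 to 804 reads (log2 fold change 0.24, limma adjusted p = 0.0516). Of 8 osteoblast markers, RUNX2, SP7, ALPL, COL1A1 and SPARC had at least 2411 reads in every library, IBSP was lower in p21 ON cells (log2 fold change -0.38, limma adjusted p = 0.0264), COL1A2 had 2 to 4 reads and BGLAP was at 0. Of 6 markers of blood, epithelial and endothelial cells, PTPRC, CD14, CDH1, CDH5 and PECAM1 had at most 16 reads in any library, and EPCAM had 265 to 427 with no difference past the threshold (limma adjusted p = 0.62). Because RNA was taken from whole cultures, fewer cells in S phase and less RNA per cell cannot be told apart.

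The upstream sequences of 4 members are shown because they hold the letters of an E2F site, the element named above. Promoters were taken from RefSeq on GRCh38.p14, a later build than the hg19 genome used for mapping, as the 250 bases before the start of the gene on the strand of the gene. A promoter was found for 9 of the 10 members, with 13 start sites in all. Capitals mark the E2F heptamer, searched on both strands as TTCCCGC or with other inner letters as TTCGCGC or in the variant TTGCCGC or the variant TTGGCGC. On GRCh38.p14 the upstream window of POLA1 is chrX:24693668-24693917 (plus strand) and that of POLA2 chr11:65261712-65261961 (plus strand). The window of PRIM1 is chr12:56752324-56752573 (minus strand) and that of POLE chr12:132687343-132687592 (minus strand). Positions of whole genes given further below are on GRCh37.
POLA1: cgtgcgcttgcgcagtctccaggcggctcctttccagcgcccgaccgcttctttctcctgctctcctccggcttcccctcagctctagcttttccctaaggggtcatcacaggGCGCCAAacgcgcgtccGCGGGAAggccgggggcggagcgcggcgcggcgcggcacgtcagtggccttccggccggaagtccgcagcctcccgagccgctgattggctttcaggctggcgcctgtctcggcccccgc
POLA2: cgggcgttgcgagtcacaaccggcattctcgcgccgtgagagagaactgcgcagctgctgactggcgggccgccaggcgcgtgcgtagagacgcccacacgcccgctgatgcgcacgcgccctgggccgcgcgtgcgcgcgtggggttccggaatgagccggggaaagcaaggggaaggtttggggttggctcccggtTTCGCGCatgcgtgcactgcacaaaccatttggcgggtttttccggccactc
PRIM1: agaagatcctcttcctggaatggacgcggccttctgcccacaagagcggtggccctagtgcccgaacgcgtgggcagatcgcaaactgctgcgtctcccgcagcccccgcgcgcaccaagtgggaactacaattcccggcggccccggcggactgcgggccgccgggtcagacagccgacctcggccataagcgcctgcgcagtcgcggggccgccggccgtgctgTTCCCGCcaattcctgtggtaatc
POLE: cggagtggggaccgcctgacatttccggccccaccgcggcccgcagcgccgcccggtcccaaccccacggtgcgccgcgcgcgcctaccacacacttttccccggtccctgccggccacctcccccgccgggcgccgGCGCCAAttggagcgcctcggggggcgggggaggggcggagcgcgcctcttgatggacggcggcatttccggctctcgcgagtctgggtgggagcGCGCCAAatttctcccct
These 4 members, each with 1 start site, were the only ones of the 9 with a heptamer in the window. Counted by start site, they are 4 of the 13 starts of the members, and 10.9% of 35116 promoters of this length hold one. The longer octamer, which is a heptamer with a further T before it, was found in POLA1 at -137, in POLA2 at -53 and in POLE at -18 from the start, against 2.79% of all promoters. PRIM1 has its heptamer at -24, POLA1 has another at -120, and POLE has another at -113. The CHR element of mitotic genes (TTTGAA or TTCGAA, 14.3% of promoters) occurred at 1 of the 3 starts of POLE3, at -128. CCAAT (32.0% of promoters) occurred in POLA1, PRIM1, POLD2 and POLE, and it overlaps a heptamer in PRIM1 and in POLE. Of the 3 members with an octamer, POLA1 was called higher, POLA2 lower and POLE neither in the RNA values that follow. PRIM1, with a heptamer only, was called neither. PRIM2, POLD1 and POLE3 hold no heptamer in the window and were called lower. Whether these letters bear on the RNA values was not tested. A match is a description of letters and does not show that a factor binds there.

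Induction of p21 was followed by modest and divergent changes in these 10 genes. POLA1, the catalytic subunit of polymerase alpha, was higher in p21 ON cells, while its partner POLA2, the primase subunit PRIM2, the polymerase delta catalytic subunit POLD1 and the histone-fold subunit POLE3 were lower. The other 5 genes did not pass the test. The test was limma on log2(normalized count + 1), in which 13255 genes took part because their mean was 10 or more, all members included, and a gene was called at a Benjamini-Hochberg adjusted p under 0.05. Thus 1 of 10 members was called higher, against 10.5% of all genes tested, and 4 of 10 were called lower, against 12.7%. Over all genes these were 1393 higher and 1681 lower calls, and scaling by library size alone turned the split to 2034 and 1194 and added POLE to the members called higher (log2 fold change 0.21, limma adjusted p = 0.03) and took PRIM2 from those called lower (-0.19, limma adjusted p = 0.0506). For 1 member all 3 p21 ON values exceeded all 3 p21 OFF values, against 19.1% of all genes, and for 6 members they were all smaller, against 21.3%. The median log2 fold change of the members was -0.15 and that of all genes tested was 0.0056, with members ranging from -0.44 for POLA2 to 0.34 for POLA1. By complex, the median was -0.22 for the 4 genes of polymerase alpha-primase, -0.08 for the 3 of polymerase delta and -0.06 for the 3 of polymerase epsilon.

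**Figure D1:**
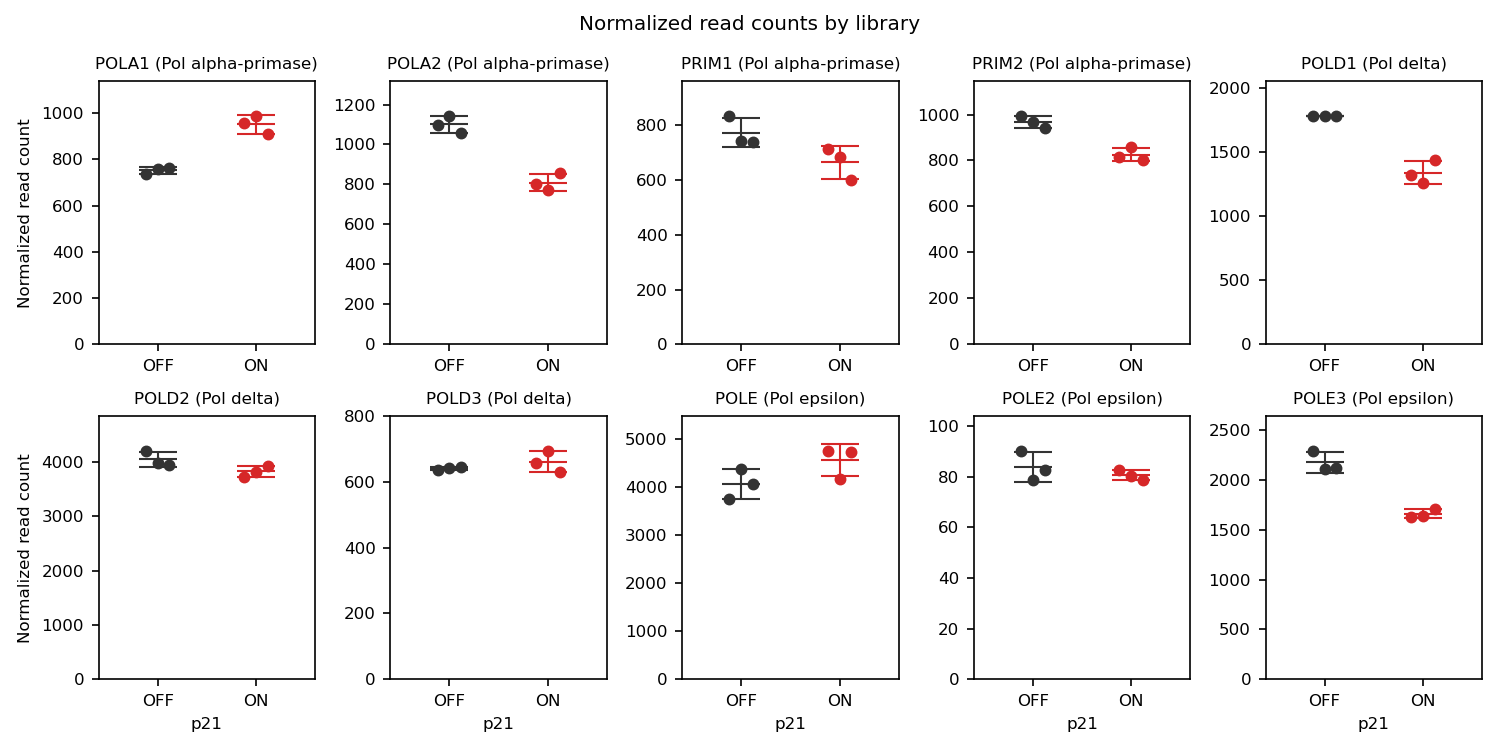
Normalized read counts of the 10 genes (vertical axes, each from 0) in the 3 p21 OFF (black) and 3 p21 ON (red) libraries, with points for libraries and lines for the mean and SD. The p21 ON points of POLA1 lie above all p21 OFF points, those of POLA2, PRIM1, PRIM2, POLD1, POLD2 and POLE3 lie below, and those of POLD3, POLE and POLE2 overlap.

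POLA1, which extends the RNA primer with DNA, lies on the plus strand of GRCh37 at chrX:24711990-25015103 with 37 exons in its canonical transcript. It had 736, 760 and 764 normalized counts with p21 OFF and 958, 988 and 908 with p21 ON. Every p21 ON library was above every p21 OFF library, and the means went from 753 ± 15.0 to 952 ± 40.3 (SD, n = 3 each), a rise of 26.3%. The log2 fold change was 0.34 (standard error 0.07, 95% confidence interval 0.20 to 0.48, limma adjusted p = 0.0017).

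POLA2 encodes the regulatory B subunit that binds POLA1 and lies at chr11:65029384-65073430 on the plus strand. Its p21 OFF libraries had 1099, 1144 and 1058 normalized counts and its p21 ON libraries 802, 770 and 855. The groups did not overlap, and the mean fell by 26.4%, from 1100.1 ± 42.9 to 809 ± 43.0 (SD, n = 3 each). With a log2 fold change of -0.44 (standard error 0.07, 95% confidence interval -0.59 to -0.30, limma adjusted p = 0.000152), POLA2 had the largest change of the 10 genes and lay at percentile 3.80 of all genes tested. A same-strand gene model, ENSG00000285816, shares 1978 of the 3544 bases of its canonical exons, has no row in the table, and its part in the count of POLA2 was not tested.

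PRIM2, the large primase subunit, which holds an iron-sulfur cluster and helps primase start, lies at chr6:57179603-57513376 on the plus strand. It had 995, 968 and 941 normalized counts with p21 OFF and 816, 857 and 803 with p21 ON. All p21 ON libraries were below all p21 OFF libraries (968 ± 26.9 to 825 ± 28.0, SD, n = 3 each), and the log2 fold change was -0.23 (standard error 0.07, 95% confidence interval -0.37 to -0.09, limma adjusted p = 0.0177). This call was lost without p21 OFF replicate 2 (adjusted p = 0.0512), without p21 ON replicate 1 (0.0804) and without p21 ON replicate 3 (0.0709), all by limma. On the same strand, the long noncoding RNA ENSG00000290597 overlaps 836 of the 1683 bases of the canonical exons and the pseudogene PRIM2BP overlaps 640. Neither has a row in the table, and whether their reads were counted for PRIM2 was not tested.

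PRIM1 encodes the catalytic primase subunit that synthesizes the RNA primer, at chr12:57124222-57146158 on the minus strand. It had 835, 744 and 741 normalized counts with p21 OFF and 715, 685 and 599 with p21 ON. The groups did not overlap, but the log2 fold change of -0.22 (standard error 0.08, 95% confidence interval -0.39 to -0.05) missed the threshold (limma adjusted p = 0.0592). Its size over all libraries was close to that of PRIM2, and the normalized counts of PRIM1 in p21 ON libraries were more spread (coefficient of variation 9.05%) than those of PRIM2 (3.39%). Without p21 ON replicate 3 the log2 fold change of PRIM1 was -0.14 (limma adjusted p = 0.259). On the same strand, the gene model ENSG00000285625 shares 362 of the 1423 bases of its canonical exons and NACA shares 49, and HSD17B6 on the opposite strand shares 123.

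**Figure D2:**
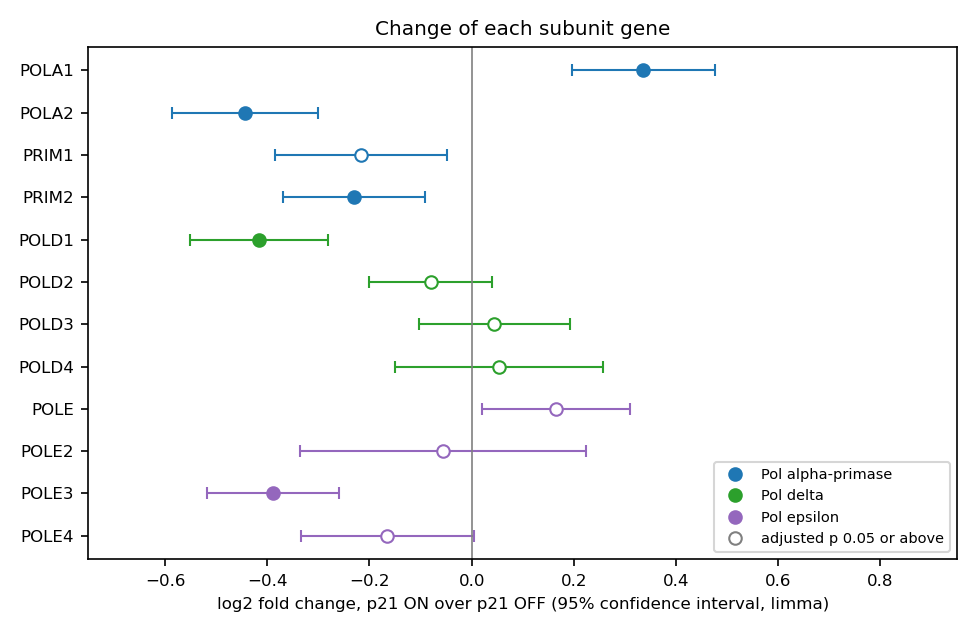
Log2 fold change of p21 ON over p21 OFF (horizontal axis) for the 10 genes and for POLD4 and POLE4, with 95% confidence intervals from limma and colour for the complex. Filled points passed the adjusted p threshold of 0.05, with POLA1 at 0.34 on the right and POLA2, PRIM2, POLD1 and POLE3 between -0.44 and -0.23 on the left.

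POLD1, the catalytic and proofreading subunit of polymerase delta, lies at chr19:50887461-50921275 on the plus strand. Its normalized counts were 1781, 1779 and 1781 with p21 OFF and 1323, 1254 and 1433 with p21 ON. The p21 OFF libraries were almost equal, the p21 ON libraries all lay below them, and the mean fell by 24.9% (1781 ± 1.00 to 1336 ± 90.4, SD, n = 3 each). The log2 fold change was -0.42 (standard error 0.06, 95% confidence interval -0.55 to -0.28, limma adjusted p = 0.000163). On the same strand, the gene model ENSG00000142539 shares 426 of the 3436 bases of its canonical exons.

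POLD2, the subunit that links POLD1 to POLD3, lies at chr7:44154230-44163957 on the minus strand and had 4212, 3990 and 3944 normalized counts with p21 OFF. With p21 ON it had 3733, 3825 and 3929. Although the groups did not overlap, the closest libraries were 3944 and 3929, and the log2 fold change of -0.08 (95% confidence interval -0.20 to 0.04) did not pass (limma adjusted p = 0.328). POLD3, a subunit that binds PCNA and also serves in polymerase zeta, lies at chr11:74204896-74380162 on the plus strand. It had 638, 641 and 645 normalized counts with p21 OFF and 659, 696 and 632 with p21 ON. These groups overlapped, with a log2 fold change of 0.04 (95% confidence interval -0.10 to 0.19, limma adjusted p = 0.679). The intervals of POLD2 and POLD3 do not include the change of POLD1.

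POLE, the catalytic subunit of polymerase epsilon, lies at chr12:133200339-133263962 on the minus strand. It had 3755, 4369 and 4065 normalized counts with p21 OFF and 4759, 4171 and 4738 with p21 ON. One p21 ON library lay below the highest p21 OFF library, and the log2 fold change of 0.17 (standard error 0.07, 95% confidence interval 0.02 to 0.31) did not pass (limma adjusted p = 0.0906). It passed without p21 OFF replicate 2 (0.22, adjusted p = 0.0497 by limma) and without p21 ON replicate 2 (0.23, adjusted p = 0.0421 by limma). It was smaller without p21 OFF replicate 1 (0.11, adjusted p = 0.17 by limma), without p21 ON replicate 1 (0.13, adjusted p = 0.311 by limma) and without p21 ON replicate 3 (0.14, adjusted p = 0.274 by limma). POLE2, a subunit that joins the polymerase to the helicase, lies at chr14:50110273-50155140 on the minus strand and was the weakest of the 10, with 66 to 112 reads in a library. Its p21 OFF libraries had 90.4, 78.9 and 82.8 normalized counts and its p21 ON libraries 82.7, 80.4 and 78.9. The groups overlapped, and the 95% confidence interval of the log2 fold change, -0.34 to 0.22, is wide at this depth (limma adjusted p = 0.79).

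POLE3, a small histone-fold subunit of polymerase epsilon that is also found in the CHRAC chromatin remodeler, lies at chr9:116169515-116172955 on the minus strand. It had 2295, 2114 and 2117 normalized counts with p21 OFF and 1631, 1638 and 1711 with p21 ON. No p21 ON library reached a p21 OFF library, and the mean fell by 23.7%. The log2 fold change was -0.39 (standard error 0.06, 95% confidence interval -0.52 to -0.26, limma adjusted p = 0.000195). C9orf43 on the opposite strand shares 86 exonic bases with POLE3, and the strand setting of the counting was not given.

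In the study's lists of genes that peak at a phase of the cell cycle, PRIM1 and POLD3 are high-stringency G1/S genes and 9 of the 10 members are low-stringency G1/S genes. POLE3 is in neither list, and no member is in a G2/M list. The 2 high-stringency genes, PRIM1 and POLD3, both missed the threshold. Of the low-stringency genes, POLA2, PRIM2 and POLD1 were called lower and POLA1 higher. POLE3, outside the lists, was also called lower.

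Because POLA1 and POLA2 bind each other in cells, their levels were also compared within each library, where the scaling between libraries plays no part. The normalized count of POLA1 divided by that of POLA2 was 0.67, 0.665 and 0.722 with p21 OFF and 1.19, 1.28 and 1.06 with p21 ON. POLA2 had more reads than POLA1 in every p21 OFF library and fewer in every p21 ON library, a log2 change of the ratio of 0.78. PRIM1 over PRIM2, the primase pair, had ratios of 0.84, 0.768 and 0.787 with p21 OFF and 0.876, 0.799 and 0.746 with p21 ON. These overlapped, with a log2 change of 0.01 (exact two-sided permutation test, p = 0.9). PRIM1 over POLA1 changed by -0.55, from 1.03 ± 0.0928 to 0.699 ± 0.0439 (SD, n = 3 each). The ratios of POLA1 to POLA2 and to PRIM1 thus moved without overlap, whereas the ratio within primase had group means of 0.798 and 0.807.

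In polymerase delta, POLD1 over POLD2 went from 0.44 ± 0.0153 to 0.349 ± 0.019 and POLD3 over POLD1 from 0.36 ± 0.0020 to 0.498 ± 0.057 (SD, n = 3 each). In polymerase epsilon, POLE3 over POLE went from 0.539 ± 0.0655 to 0.366 ± 0.0252 with no overlap, and POLE2 over POLE overlapped between groups (log2 change -0.22, exact two-sided permutation test, p = 0.2). The change of POLE2 over POLE was -0.11 without p21 OFF replicate 1, -0.32 without p21 OFF replicate 2, where the exact p was 0.1, and -0.06 with a trend on gene length removed. Among the catalytic subunits, POLE over POLD1 went from 2.28 ± 0.173 to 3.41 ± 0.163 and POLA1 over POLD1 from 0.423 ± 0.0085 to 0.716 ± 0.0775 (SD, n = 3 each), both without overlap. POLA1 over POLE overlapped between groups, at 0.186 ± 0.0111 and 0.21 ± 0.0238 (SD, n = 3 each), a log2 change of 0.17 that was 0.08 without p21 ON replicate 2. Ratios that share a gene, such as POLA1 or POLD1, are not independent of each other. Of the 10 ratios, 7 did not overlap between groups. Each of these holds POLA1, POLD1 or POLE3, which were called as single genes, so the count is no separate result. The share of other gene pairs without overlap was not computed. The shares for single genes, 19.1% above and 21.3% below, are a different measure. For each of the 7 ratios the exact two-sided permutation test gave p = 0.1, the smallest that 3 libraries against 3 allow, and 0.143 after Benjamini-Hochberg adjustment over the 10 ratios, so none could pass the threshold.

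**Figure D3:**
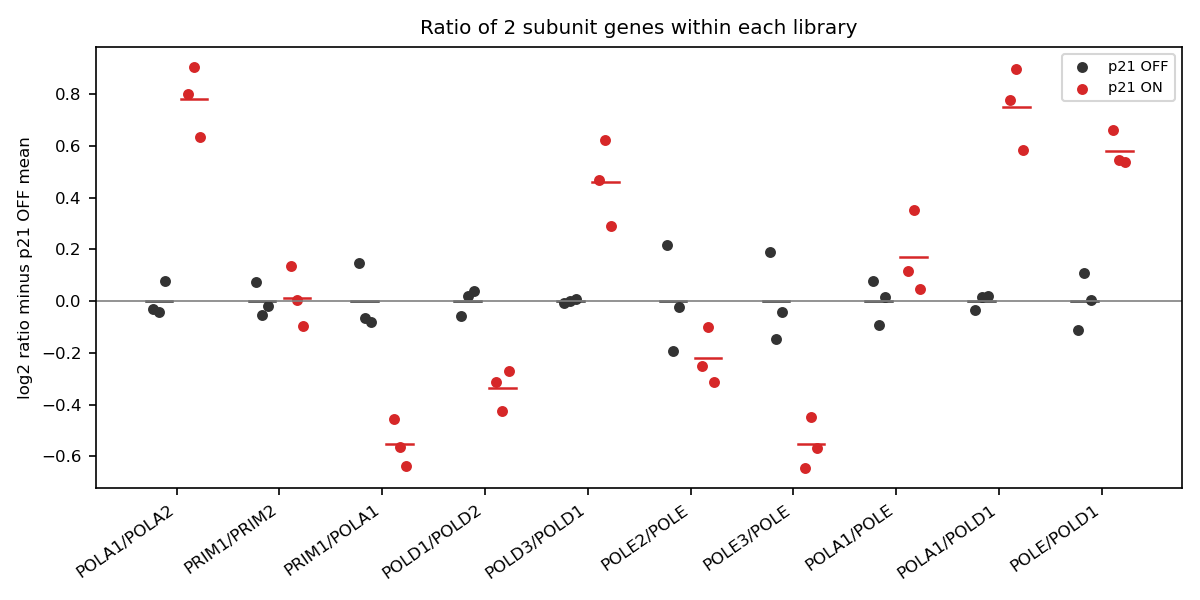
Log2 ratio of 2 subunit genes in each library minus the p21 OFF mean of that ratio (vertical axis), with points for libraries and short lines for group means, p21 OFF in black and p21 ON in red. The p21 ON mean lies at 0.78 for POLA1/POLA2, at 0.01 for PRIM1/PRIM2 and at -0.55 for POLE3/POLE.

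Between genes, levels were compared as normalized counts per kilobase of exons. In p21 OFF cells POLE3 was highest at 834 ± 39.7 per kb and POLE2 lowest at 28.6 ± 1.99 (SD, n = 3 each), 29.2 times apart. POLD2 followed POLE3 at 506 ± 17.9, ahead of POLD1 at 361 ± 0.203 and POLE at 329 ± 24.8. PRIM1 (234 ± 16.2) and PRIM2 (195 ± 5.42) came next, then POLD3 (117 ± 0.664), POLA2 (91.6 ± 3.58) and POLA1 (48.5 ± 0.966). Neighbours in this order differed by more than the SD of either gene. In p21 ON cells POLE, at 369 ± 27.0 per kb, stood above POLD1, at 271 ± 18.3, and the order of the other 8 genes was as in p21 OFF cells. The length used changes this order. With the longest transcript, POLD2 was highest in p21 OFF cells at 1084 ± 38.4 per kb and POLE3 followed at 908 ± 43.2. With the canonical transcript, a choice made after seeing the data, POLD2 was highest at 2516 ± 89.1 per kb and POLE3 stood at 991 ± 47.2. POLE3 was thus highest only with the union of exons, while POLA1 and POLE2 stayed in the lowest places throughout.

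The remaining small subunits, POLD4 of polymerase delta and POLE4 of polymerase epsilon, are outside the 10. POLD4 had 261, 224 and 236 normalized counts with p21 OFF and 270, 239 and 239 with p21 ON, which overlap (log2 fold change 0.05, limma adjusted p = 0.723). POLE4 pairs with POLE3 through its own histone fold and had 468, 493 and 432 with p21 OFF and 395, 426 and 420 with p21 ON. Its groups did not overlap, but its log2 fold change of -0.16 did not pass (limma adjusted p = 0.146).

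Among 8 partners that share a subunit with these complexes or bind one, 7 were tested, 1 was called higher and 2 lower by limma. Of all genes tested, 10.5% were called higher and 12.7% lower. REV3L, the catalytic subunit of polymerase zeta, which uses POLD2 and POLD3, was higher (log2 fold change 0.34, limma adjusted p = 0.0055), and its partner MAD2L2 was lower (-0.25, limma adjusted p = 0.0127). CHRAC1, the histone-fold partner of POLE3 in CHRAC, was lower (-0.19, limma adjusted p = 0.0481), beside values for the CHRAC subunits BAZ1A of 0.12 and SMARCA5 of -0.09 that did not pass. In the CST complex, which brings polymerase alpha-primase to telomeres, CTC1 had a log2 fold change of 0.16 and STN1 of 0.09, neither past the threshold, and TEN1 was listed at 0 in all libraries.

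Beside these, 27 other replisome genes (helicase, clamp, clamp loader, single-strand binding and Okazaki processing) gave 5 called higher and 11 lower, with a median log2 fold change of -0.11. The shares over all genes tested were 10.5% higher and 12.7% lower. The largest changes among them were MCM6 at 0.47 and MCM3 at 0.39 upward, both of the MCM helicase, and MCM10 at -1.26 and GINS4 at -1.14 downward, both needed to activate it. RFC3 at -1.11 and CDC45 at -1.08 came next, then GINS1 at -0.67. No member fell as far as these, and neither did the remaining replisome genes. Of 16 genes of other DNA polymerases and their partners, 13 were tested with a median of 0.09, and 2 were called in each direction, beside the same shares of all genes. The calls of REV3L and MAD2L2 are those already counted among the partners. REV3L at 0.34 and POLM, of end joining, at 0.31 were higher. POLQ, of microhomology-mediated end joining, at -1.28 and MAD2L2, the partner of REV3L, at -0.25 were lower. The mean normalized count of POLQ was 874 ± 62.2 with p21 OFF and 361 ± 52.5 with p21 ON (SD, n = 3 each).

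**Figure D4:**
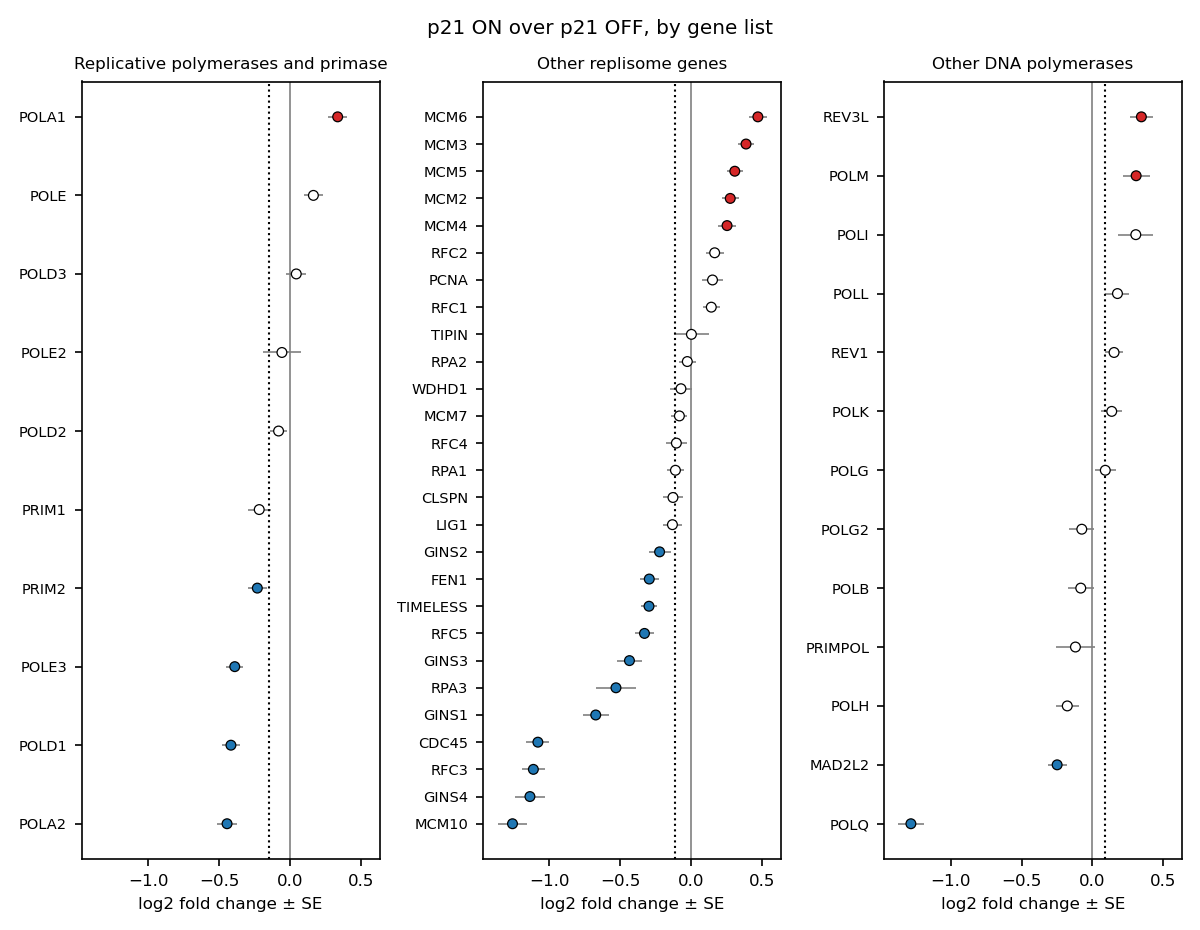
Log2 fold change of p21 ON over p21 OFF with its standard error (horizontal axes) for the 10 genes, 27 other replisome genes and the 13 other DNA polymerase genes tested. Red points were called higher, blue lower and white neither, and dotted lines mark the medians of -0.15, -0.11 and 0.09.

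Gene length moved with the change across the table. Over 12667 genes the Spearman correlation of log2 fold change with exon length was 0.28, and over the 10 members it was 0.442; genes share libraries and are not independent, so no p is given. POLA1 and POLE have the longest exon unions of the 10, at 15547 and 12364 bases. POLA2 comes next at 12006 bases, and it had the largest fall of the 10 (-0.44). With a length trend removed from each library, the log2 fold change of POLA1 was 0.21 (limma adjusted p = 0.0203) and that of POLE was 0.06 (limma adjusted p = 0.498), while POLA2 was at -0.55, POLD1 at -0.42, POLE3 at -0.32 and PRIM2 at -0.23, all past the threshold. With the trend on the canonical transcript instead, added after seeing the data, PRIM2 missed the threshold at -0.16 (limma adjusted p = 0.0524) and PRIM1 was at -0.13 (limma adjusted p = 0.209). In that fit POLA1 at 0.27, POLA2 at -0.46, POLD1 at -0.43 and POLE3 at -0.35 stayed past the threshold.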

How the data were processed

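RNA of 6 SaOS-2 libraries, 3 per group, was sequenced by the authors from stranded polyA libraries with single-end reads in one lane. Per the labels and the methods, the authors mapped reads to hg19 with STAR, counted them with HTSeq and normalized with DESeq2, and the deposited table holds the resulting signal, a normalized count per gene and library. Versions of these tools and the strand setting are not given in the sources used here. Dividing by the smallest step of a library gave whole reads for 100% of its values within 0.01 of a read, so reads could be recovered, and the size factors were 0.796 to 1.35. Replicates differed by more than sampling noise (chi-square per gene 2.71 to 9.26, the highest 2 for pairs with p21 OFF replicate 1). All 6 libraries were kept in the main test. Symbols were used as deposited, and 2 list genes were found under older names, PRIMPOL as CCDC111 and STN1 as OBFC1. Positions and exon lengths were from GENCODE on GRCh37, with 21251 rows matched.

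In R 4.3.3, limma 3.58.1 (eBayes, trend) was fitted to log2(normalized count + 1), a scale that understates changes of low genes, with a mean of at least 10 and Benjamini-Hochberg adjustment over 13255 genes. Alternatives were limma-voom, edgeR 4.0.16 and DESeq2 1.42.0 on recovered reads, other scalings, pseudocounts of 0.1 and 10, filters, a threshold of 0.01, length and GC trends, a replicate block and each library left out. The canonical length was added after seeing the data. Scripts were tested on simulated data. Named genes were all members, CDKN1A, the small subunits, partners, RB1 and, per further list, the 2 genes that rose most and the 2 that fell most among calls without overlap. The members and lists were chosen with earlier results of these data known. One gene named in the plan is not reported here.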

Additional observations from a re-analysis of the deposited data

How the results depend on the processing

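Over 21 alternatives POLA1, POLA2, POLD1 and POLE3 kept their direction and their side of the threshold in 21 of 21. With library size scaling, which raised the median log2 fold change of all genes to 0.05, the members called higher became 2 with POLE (0.21), 3 members were called lower without PRIM2, the other DNA polymerase genes called higher became 4, and all genes split into 2034 higher and 1194 lower. With the GC trend removed the other DNA polymerase genes called higher were also 4. At an adjusted p under 0.01 by limma, PRIM2 was not called, 1 other DNA polymerase gene was higher and 1 lower, and all genes gave 616 higher and 882 lower. DESeq2 called 1073 genes higher and 1502 lower, and edgeR with TMM 1401 and 1647. Removing the canonical length trend turned POLE2 to 0.012 (adjusted p = 0.96 by limma). Leaving out each library in turn gave 1 to 2 members higher and 3 to 4 lower, 1 to 2 other DNA polymerase genes higher and 1 to 3 lower, and 692 to 1488 genes higher and 888 to 1662 lower over all genes. The lowest of these counts came without p21 ON replicate 1 (692 and 888), and p21 ON replicate 3 gave 739 and 1076. The log2 change of PRIM1/PRIM2 ranged from -0.047 to 0.069 and was below 0 without p21 OFF replicate 2 (-0.014) and without p21 ON replicate 1 (-0.047). The ratio of the highest to the lowest level per kb was 23.1 with the longest transcript and 50.7 with the canonical transcript. The cause of these differences was not tested, except that leaving out a library leaves fewer samples. Libraries with the same number were not paired by the labels, and their deviations did not go together (correlations -0.06, -0.02 and -0.05); no sample correlated best with its own number. With the replicate number as a block, 1407 genes were higher and 1513 lower, with 1 member higher and 4 lower. Depth limits POLE2 most, with 66 reads in its lowest library.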
